A study of Mus musculus with 15 samples.

Results

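The genes described here belong to the amino acid transporter families of the mouse kidney. They were chosen by name, as every symbol in the 3 deposited comparisons that begins with Slc1a, Slc3a, Slc6a, Slc7a, Slc36a, Slc38a or Slc43a. This rule, and the role groups and gene lists used below, were set with earlier results of these data known. The rule gave 62 of the 23420 genes in each comparison. Of these, 61 encode transporters or their partner subunits, with 7 in the Slc1a, 2 in the Slc3a, 19 in the Slc6a, 15 in the Slc7a, 4 in the Slc36a, 11 in the Slc38a and 3 in the Slc43a family. The remaining symbol, Slc7a6os, names a gene beside Slc7a6 that encodes no transporter. The study compared kidneys of C57BL/6 mice whose Esrrg gene, which encodes the nuclear receptor ERRγ, could be deleted by Cre recombinase. Every mouse carried the genotype ERRg fl/fl, so that the controls had the floxed alleles too. Knockout mice also carried Sim1-Cre, while controls were littermates without Cre. The transgene is driven by the Sim1 promoter, and the sources used here do not say which kidney cells it reaches. The labels give 6 groups: 2 control and 3 knockout males at 3 weeks, 2 control and 2 knockout females at 3 weeks, and 3 control and 3 knockout males at 3 months.

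Nearly all free amino acids that pass the glomerular filter are taken back by the proximal tubule. Carriers in the brush border, mostly driven by sodium or by exchange for another amino acid, bring them into the cell, and a second set of carriers and exchangers in the basolateral membrane passes them on to the blood. Several carriers work only as pairs of a heavy chain of the Slc3a family and a light chain of the Slc7a family. Other members feed amino acids to the cell itself, move transmitters in nerve and glial cells, carry osmolytes such as taurine and betaine, or work in the membrane of lysosomes.

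Polyadenylated RNA of whole kidneys was sequenced, and the values analysed are the authors' comparisons of knockout with control in 3-week males, 3-week females and 3-month males. For each gene they hold a normalized mean count over the libraries of both genotypes, a log2 fold change, its standard error (SE) and an adjusted p. Values per library were not analysed here, so no spread over single kidneys is given. Summed over all genes, the mean counts of the authors' deposited table came to 47.6 in 3-week males, 33.9 in 3-week females and 18.8 in 3-month males, in units of 1e6. Lowest mean counts moved in steps that fitted 4, 4 and 5 libraries in that order, where the labels give 5, 4 and 6, and 2 of these steps in each went with positive fold changes. Values written with ± below are log2 fold changes with their SE. A gene was called when its adjusted p was under 0.05. Genes with a mean below about 10 have the status low and no adjusted p, and genes with the status outlier have a fold change but no p-value. The source names of the 3-month knockouts say female where their titles and characteristics say male. The authors' deposited table of 3-month males gave Xist, the RNA of the inactive X chromosome, a mean of 11.9, against 23848 in that of females, and the Y-linked Ddx3y a mean of 1477.

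Which genotype is the numerator of the ratio is not stated in the headers. Positive values are read here as higher in the kidneys labelled knockout. The reading rests on the title of the series, which links ERRγ with mitochondria and reabsorption, and on the complex I genes named Nduf, of which 32 of 43, 35 of 44 and 35 of 43 were lower and 0 higher in the authors' deposited table of 3-week males, 3-week females and 3-month males. For Esrrg itself the authors' deposited table gave 0.82 ± 0.20 (SE, adjusted p = 6.13e-04) in 3-week males, 1.04 ± 0.17 (SE, adjusted p = 1.70e-08) in 3-week females and -0.87 ± 0.57 (SE, no p-value, outlier status) in 3-month males. The positive values at 3 weeks go against this reading on their face, and since the sources used here do not name the floxed exon, Esrrg is no check of the deletion or of the labels. Falls of reabsorptive carriers thus belong to the reading and do not support it. If control were the numerator, each rise below would be a fall and each fall a rise. Opposite movement of different carriers within a table does not depend on the reading.

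Carriers of the proximal tubule had the highest levels. Per kilobase of exon, Slc3a1 had the highest mean in all 3 tables. Slc3a1 encodes rBAT, the heavy chain of the brush border exchanger for cystine and dibasic amino acids. The authors' deposited table gave Slc3a1 a mean of 14352 normalized counts per kilobase in 3-week males, 11156 in 3-week females and 5646 in 3-month males. These made up 23.8%, 25.1% and 21.5% of the summed means per kilobase of the transporters. Slc6a18, a brush border carrier of glycine and neutral amino acids, came next at 3 weeks, with 9989.7 per kilobase in males and 7511 in females in the authors' deposited table. At 3 months the second place went to Slc7a13, another partner of rBAT, found in the last segment of the proximal tubule, with 4406 per kilobase in the authors' deposited table. The tables were normalized separately, so only the order within a table is read from these levels. On GRCm38 in GENCODE, Slc3a1 spans chr17:85028376-85064236, Slc6a19 chr13:73679745-73704865, Slc7a9 chr7:35448796-35466036, Slc7a7 chr14:54369442-54417780, Slc7a1 chr5:148327410-148399904 and Slc6a12 chr6:121343076-121365775. At the other end 10 transporters had the low status in all 3 tables, and Slc6a5, a glycine carrier of nerve cells, was listed at 0 in each.

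**Figure D1:**
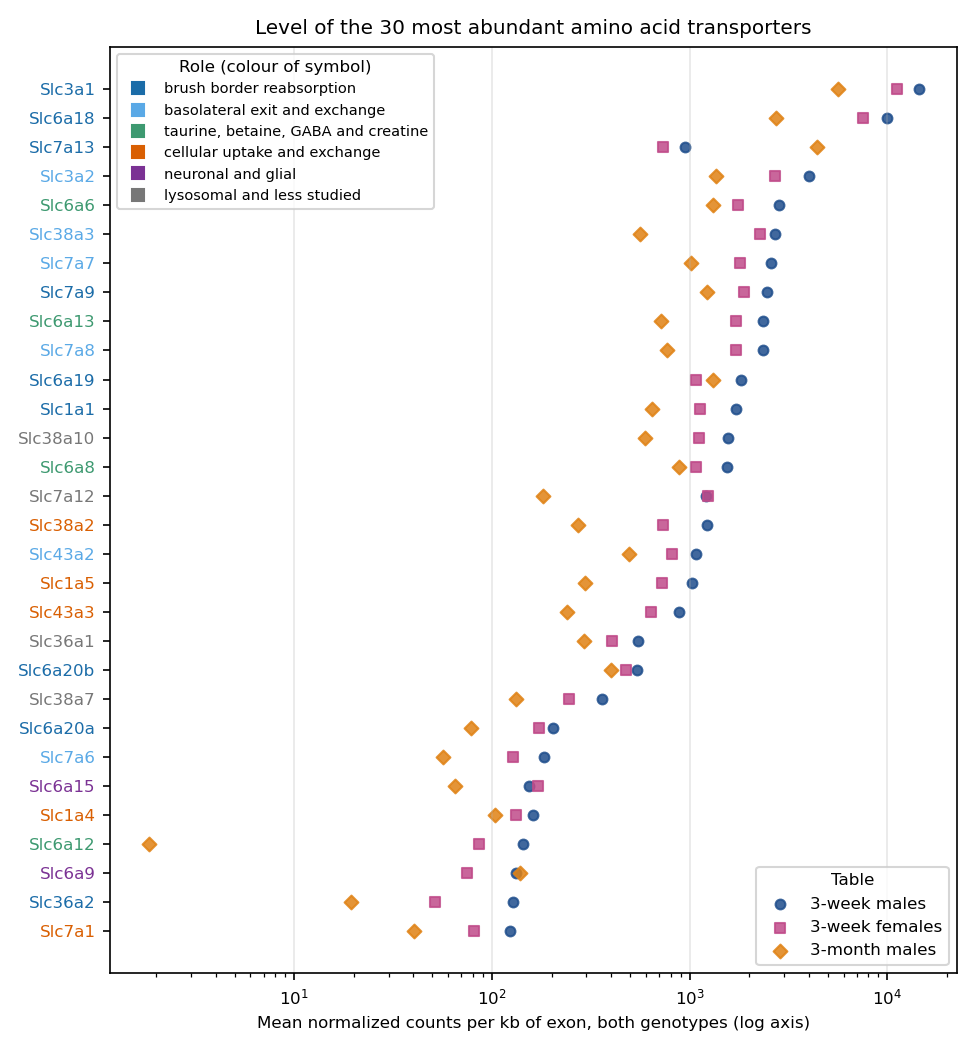
Mean of normalized counts per kilobase of exon for the 30 most abundant transporters in each of the 3 deposited tables (log axis), coloured by role; each point is the authors' mean over the libraries of both genotypes, with no error available. Slc3a1 stands highest in all 3 tables.

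Among 45 transporters tested in 3-week males, 13 were lower and 5 higher in the knockout kidneys, by the adjusted p-values of the authors' deposited table. In bulk RNA of whole kidneys, fewer cells of a type and less RNA per cell cannot be told apart. Over all genes tested there, 17.3% were called, 8.52% lower and 8.81% higher, so the transporters' share was above the background for lower calls. In 3-week females 11 of 40 were lower and 1 was higher in the authors' deposited table, where 18.7% of all genes were called, 10.4% lower and 8.29% higher. In 3-month males 17 of 34 were lower and 11 higher in the authors' deposited table, where 57.5% of all genes were called, 27.8% lower and 29.8% higher. With 57.5% of all genes called at 3 months, the transporters' share of higher calls was close to the background. The median log2 fold change of the transporters tested was 0.04, -0.18 and -0.52 in the same order, against -0.01, 0.01 and 0.01 over all genes tested. In 3-week males the median was thus slightly positive although lower calls outnumbered higher ones. Among transporters with a mean of at least 100, 13 of 37 tested were lower and 4 higher in 3-week males, where 17.7% of such genes were called, 9.42% lower and 8.31% higher. In 3-week females 11 of 34 were lower and 0 higher, beside 19.6% of such genes called, 11.6% lower and 7.98% higher. In 3-month males 15 of 26 were lower and 7 higher, beside 57.1% called, 32.2% lower and 24.8% higher. In all, 40 transporters were called in at least 1 table and 21 in none. Slc7a6os was called in none, with 0.06 ± 0.18, -0.05 ± 0.16 and -0.05 ± 0.21 in the authors' deposited table of each group. With scaling by total counts, which adds 0.18, 0.15 and 0.49 to every log2 fold change, the share of higher among the called transporters moved from 27.8% to 38.9%, from 8.33% to 33.3% and from 39.3% to 50%, and no called transporter changed direction.

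**Figure D2:**
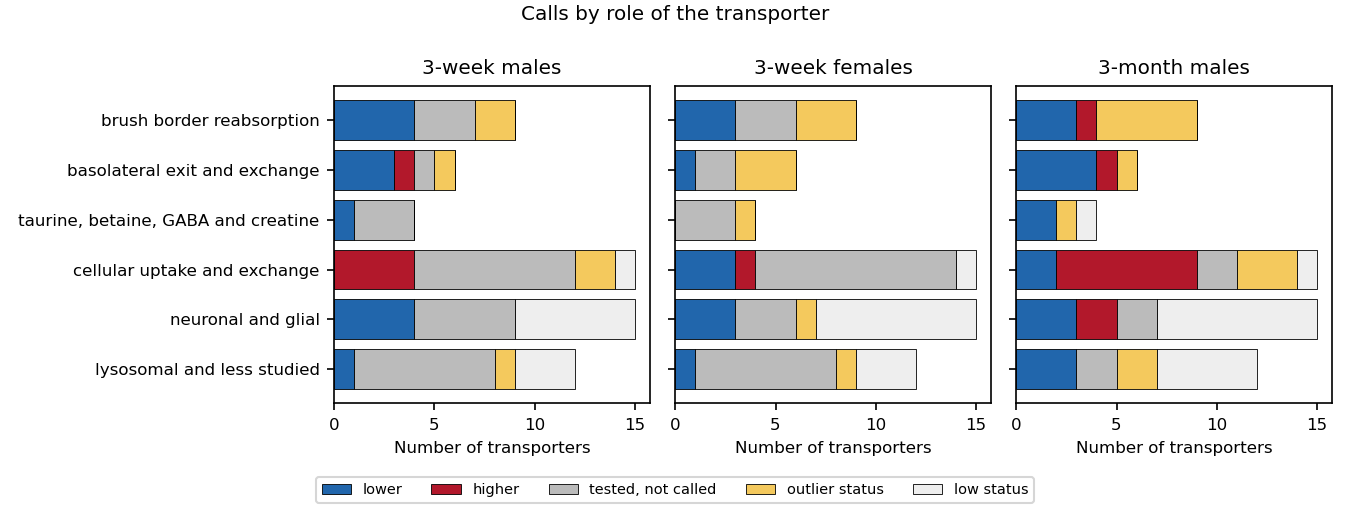
Number of transporters called lower, called higher, not called, of low mean or of outlier status, by role, in each of the 3 deposited tables (bars start at 0). No brush border or basolateral carrier other than Slc38a3 is called higher at 3 weeks, and 7 of the cellular uptake carriers are called higher at 3 months.

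Called brush border carriers were lower in the knockout kidneys, apart from Slc36a2 at 3 months. Of the 9 members of this group, 4 of 7 tested were lower in 3-week males, 3 of 6 in 3-week females and 3 of 4 in 3-month males, and Slc36a2 was the 1 higher, in 3-month males. The share of all genes tested that was lower was 8.52%, 10.4% and 27.8% in the same order. The role groups were drawn up with earlier results known, so counts beside these shares describe them and do not test them. Slc6a19 encodes B0AT1, the main brush border carrier of neutral amino acids. The authors' deposited table gave Slc6a19 log2 fold changes of -1.87 ± 0.26 (SE, adjusted p = 2.50e-11) in 3-week males, -1.82 ± 0.29 (SE, no p-value, outlier status) in 3-week females and -3.39 ± 0.22 (SE, adjusted p = 5.67e-52) in 3-month males. Its mean was 9122, 5409 and 6540.0 in the same tables, so that low counts do not limit these values. Slc7a9, the light chain that pairs with rBAT and is mutated with Slc3a1 in cystinuria, fell in all 3 tables. For Slc7a9 the authors' deposited table gave -0.80 ± 0.15 (SE, adjusted p = 4.00e-06) in 3-week males, -0.48 ± 0.14 (SE, adjusted p = 0.00403) in 3-week females and -2.29 ± 0.09 (SE, adjusted p = 1.03e-129) in 3-month males. In 3-week females the call of Slc7a9 was lost with scaling by total counts, at -0.33 (adjusted p = 0.0576). Its partner Slc3a1 fell in 3-week males, where the authors' deposited table gave -0.55 ± 0.16 (SE, adjusted p = 0.00676), and this call too was lost with total-count scaling, at -0.37 (adjusted p = 0.0929). Elsewhere the authors' deposited table gave Slc3a1 -0.21 ± 0.15 (SE, adjusted p = 0.357) in 3-week females and -1.70 ± 0.39 (SE, no p-value, outlier status) in 3-month males.

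Slc7a13, the rBAT partner of the late proximal tubule, had among the most negative values. The authors' deposited table gave -1.69 ± 0.25 (SE, adjusted p = 1.92e-09) in 3-week females, and fold changes without a p-value of -1.87 ± 0.30 in 3-week males and -4.44 ± 0.56 in 3-month males (outlier status). Slc1a1, the carrier of glutamate and aspartate, fell in 3-week females at -0.34 ± 0.12 (SE, adjusted p = 0.0253) in the authors' deposited table, a call lost with total-count scaling at -0.19 (adjusted p = 0.242). In males the authors' deposited table gave Slc1a1 -0.58 ± 0.23 (SE, adjusted p = 0.0614) at 3 weeks and -1.92 ± 0.50 (SE, no p-value, outlier status) at 3 months. The imino acid carriers Slc6a20a and Slc6a20b are related copies whose reads could be split between them. This was not checked, so their values are uncertain. For Slc6a20b the authors' deposited table gave -0.94 ± 0.17 (SE, adjusted p = 1.65e-06) in 3-week males, 0.16 ± 0.33 (SE, no p-value, outlier status) in 3-week females and -2.41 ± 0.61 (SE, no p-value, outlier status) in 3-month males. Slc6a20a was not called at 3 weeks, with 0.14 ± 0.17 in males and 0.58 ± 0.30 in females, and fell at 3 months at -1.41 ± 0.21 (SE, adjusted p = 6.45e-11), all in the authors' deposited table. Slc6a18 was not called at 3 weeks despite its high level, with 0.14 ± 0.15 (SE, adjusted p = 0.612) in males and 0.22 ± 0.16 (SE, adjusted p = 0.368) in females in the authors' deposited table. At 3 months the authors' deposited table gave Slc6a18 -1.14 ± 0.54 (SE, no p-value, outlier status).

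Marker genes of the proximal tubule, thick ascending limb and distal convoluted tubule had negative median fold changes in each table, as the carriers did. Those of principal cells, given further below, had positive fold changes. Of 7 markers of its first segments, S1 and S2, 6 of 7 tested were lower in 3-week males, 3 of 6 in 3-week females and 2 of 2 in 3-month males, with median fold changes over all 7 of -0.87, -0.46 and -2.68 in the authors' deposited table of each group. Of 6 markers of the last segment, S3, which include Slc7a13, 2 of 5, 3 of 6 and 2 of 2 were lower and 1, 1 and 0 higher, with medians over all 6 of -0.63, -0.46 and -2.60 in the authors' deposited table. Of 3 markers of the distal convoluted tubule, 3 of 3, 2 of 2 and 2 of 2 tested were lower, with medians over all 3 of -2.30, -1.85 and -2.81 in the authors' deposited table. Of 5 markers of the thick ascending limb, 4 of 5 were lower in each 3-week table. At 3 months all 5 had outlier status, 3 with negative and 2 with positive fold changes. Their medians were -0.90, -1.03 and -0.57 in the authors' deposited table. None of these markers was at 0, and their part in the falls of the carriers, and in that of Slc6a12, was not tested.

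**Figure D3:**
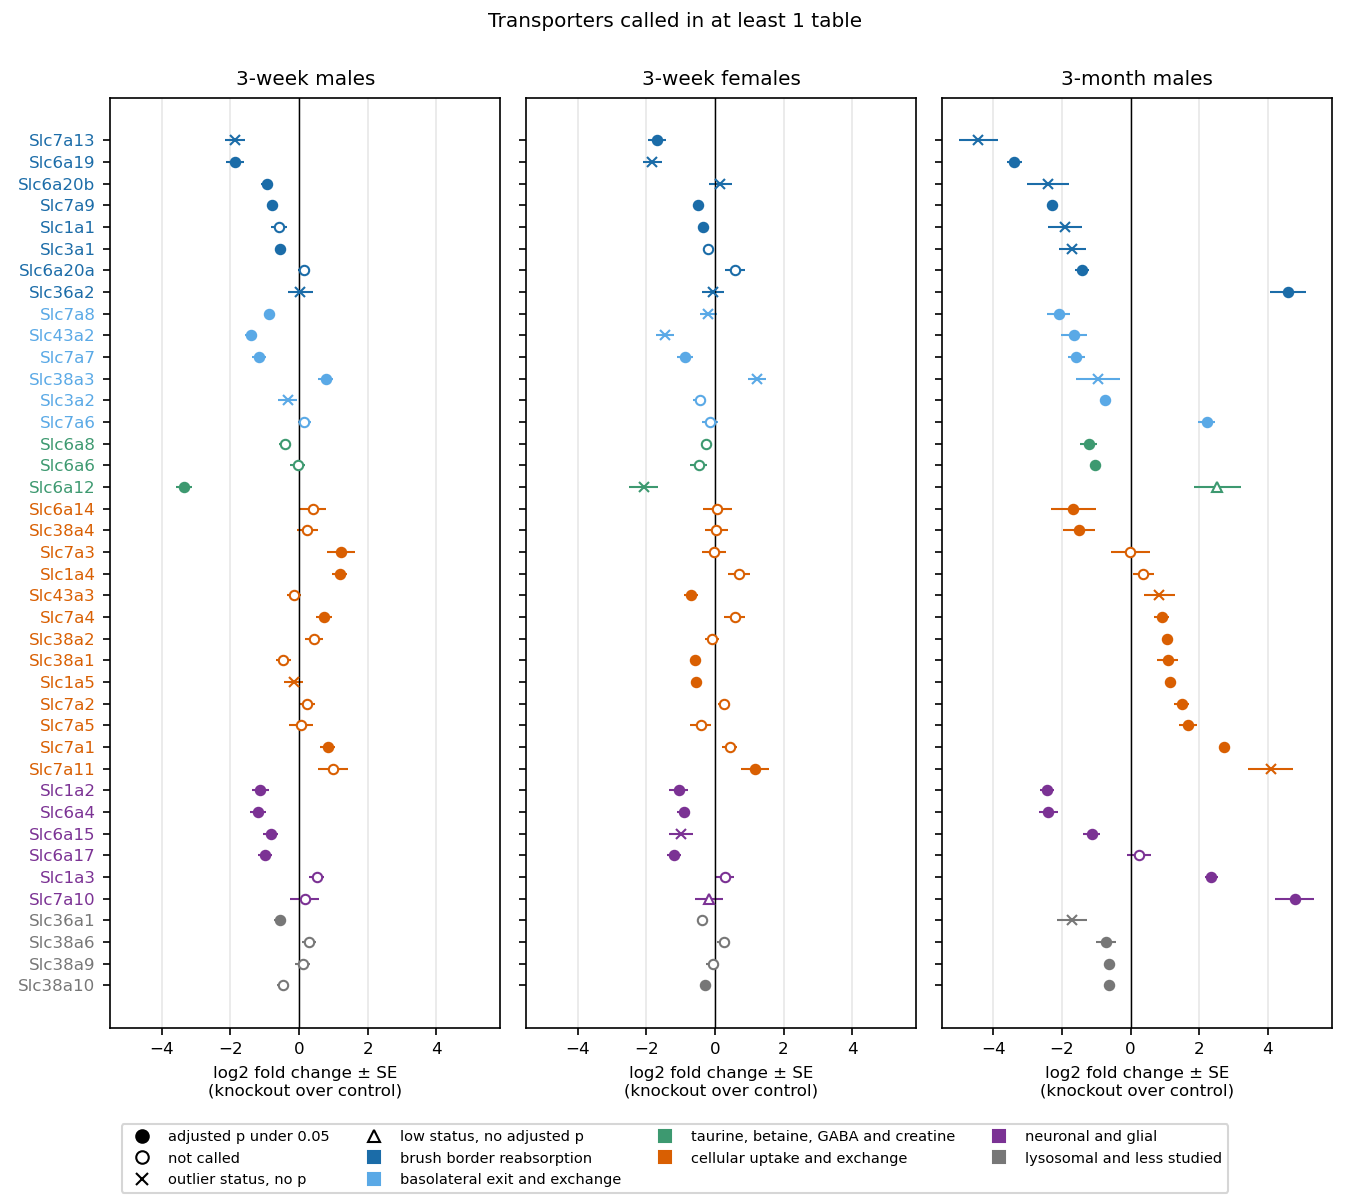
Log2 fold change (knockout over control as read here) with its SE for the transporters called in at least 1 table, grouped by role, in each of the 3 deposited tables; filled points are called, open circles not called, crosses have outlier status and open triangles a low mean. Slc6a19 lies at -3.39 and Slc7a1 at 2.73 in 3-month males.

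Basolateral carriers that release neutral and dibasic amino acids were also lower. Of the 6 members, 3 of 5 tested were lower in 3-week males, 1 of 3 in 3-week females and 4 of 5 in 3-month males, while 1 was higher in each table of males. Among all genes tested, 8.52%, 10.4% and 27.8% were lower in the same order, and 8.81% and 29.8% were higher in the 2 tables of males. Slc7a7 encodes y+LAT1, which passes dibasic amino acids to the blood in exchange for neutral ones. It fell in all 3 tables, with -1.17 ± 0.22 (SE, adjusted p = 2.70e-06) in 3-week males, -0.87 ± 0.24 (SE, adjusted p = 0.00247) in 3-week females and -1.58 ± 0.24 (SE, adjusted p = 4.71e-10) in 3-month males in the authors' deposited table. Its exons overlap those of Oxa1l on the opposite strand, and the sources used here do not say whether the counting used strand. Exons of Slc3a1, Slc1a1, Slc43a2, Slc6a20a, Slc6a20b, Slc6a6, Slc1a2, Slc6a9, Slc7a2, Slc7a10, Slc38a9 and Slc38a10 likewise overlap those of genes on the opposite strand. Slc7a8, the light chain LAT2 for neutral amino acids, had log2 fold changes of -0.89 ± 0.15 (SE, adjusted p = 6.51e-08) in 3-week males, -0.19 ± 0.26 (SE, no p-value, outlier status) in 3-week females and -2.10 ± 0.34 (SE, adjusted p = 5.13e-09) in 3-month males in the authors' deposited table. Slc43a2, a facilitative carrier of branched-chain amino acids and phenylalanine, had log2 fold changes of -1.42 ± 0.16 (SE, adjusted p = 7.47e-16) in 3-week males, -1.45 ± 0.27 (SE, no p-value, outlier status) in 3-week females and -1.65 ± 0.39 (SE, adjusted p = 6.55e-05) in 3-month males in the authors' deposited table. Slc3a2, the heavy chain 4F2hc that both light chains need, fell at 3 months, where the authors' deposited table gave -0.74 ± 0.16 (SE, adjusted p = 2.92e-05), a call lost with total-count scaling at -0.24 (adjusted p = 0.188). At 3 weeks the authors' deposited table gave Slc3a2 -0.34 ± 0.27 (SE, no p-value, outlier status) in males and -0.44 ± 0.18 (SE, adjusted p = 0.0685) in females.

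Slc38a3 and Slc7a6 were the basolateral members called higher. Slc38a3 encodes SNAT3, which takes up glutamine from the blood for ammonia production, and it rose in 3-week males at 0.77 ± 0.22 (SE, adjusted p = 0.00427) in the authors' deposited table. In 3-week females the authors' deposited table gave 1.22 ± 0.26 (SE, no p-value, outlier status), and in 3-month males -0.96 ± 0.64 (SE, no p-value, outlier status). Its sign thus differed between the male tables, though without a p-value at 3 months the difference was not tested. Slc7a6, the y+LAT2 light chain found in many tissues, was not called at 3 weeks, at 0.16 ± 0.19 in males and -0.13 ± 0.23 in females, and rose at 3 months at 2.21 ± 0.26 (SE, adjusted p = 2.09e-16), all in the authors' deposited table.

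Among the carriers of taurine, creatine, betaine and GABA, Slc6a12 had the most negative fold change of any transporter in 3-week males. Slc6a12 encodes BGT1, the betaine carrier with which cells of the renal medulla gather osmolytes. The authors' deposited table gave Slc6a12 -3.35 ± 0.24 (SE, adjusted p = 3.50e-40) in 3-week males, which corresponds to a level 10.2-fold lower, and -2.07 ± 0.42 (SE, no p-value, outlier status) in 3-week females. Its mean was 437 and 263 at 3 weeks but 5.59 in 3-month males, where the authors' deposited table gave 2.52 ± 0.68 (SE, low mean, no adjusted p). Its neighbour Slc6a13, a carrier of GABA and betaine that lies 5.34 kb away on chromosome 6, was not called at 3 weeks, with -0.11 ± 0.15 in males and -0.16 ± 0.20 in females in the authors' deposited table. At 3 months the authors' deposited table gave Slc6a13 -1.35 ± 0.48 (SE, no p-value, outlier status). The taurine carrier Slc6a6 and the creatine carrier Slc6a8 were called only at 3 months, where both fell, at -1.04 ± 0.12 (SE, adjusted p = 4.94e-16) and -1.23 ± 0.25 (SE, adjusted p = 5.12e-06) in the authors' deposited table. At 3 weeks the authors' deposited table gave Slc6a6 -0.04 ± 0.21 in males and -0.47 ± 0.24 in females, and Slc6a8 -0.41 ± 0.18 and -0.26 ± 0.14.

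Carriers with which cells take up amino acids for their own use were more often higher than lower in both tables of males. Of the 15 members, 4 of 12 tested were higher and 0 lower in 3-week males, 1 of 14 was higher and 3 lower in 3-week females, and 7 of 11 were higher and 2 lower in 3-month males. A further 3 had positive fold changes with outlier status at 3 months. Higher calls made up 8.81%, 8.29% and 29.8% of all genes tested in the same tables, and lower calls 8.52%, 10.4% and 27.8%. Slc7a1, the cationic amino acid carrier CAT1 of most cells, had log2 fold changes of 0.83 ± 0.22 (SE, adjusted p = 0.00255) in 3-week males, 0.43 ± 0.21 (SE, adjusted p = 0.145) in 3-week females and 2.73 ± 0.14 (SE, adjusted p = 3.07e-85) in 3-month males in the authors' deposited table. Its value in 3-month males corresponds to a level 6.62-fold higher. Slc7a4, a relative of the cationic carriers, rose in both male tables, with 0.73 ± 0.23 (SE, adjusted p = 0.0133) in 3-week males, 0.58 ± 0.31 (SE, adjusted p = 0.203) in 3-week females and 0.90 ± 0.21 (SE, adjusted p = 8.21e-05) in 3-month males in the authors' deposited table. Its exons overlap those of P2rx6 on the opposite strand. Slc1a4, the carrier ASCT1 of alanine, serine and cysteine, had log2 fold changes of 1.18 ± 0.22 (SE, adjusted p = 3.49e-06) in 3-week males, 0.70 ± 0.33 (SE, adjusted p = 0.120) in 3-week females and 0.37 ± 0.31 (SE, adjusted p = 0.293) in 3-month males in the authors' deposited table. Slc7a11 encodes xCT, which imports cystine for glutathione synthesis in exchange for glutamate. The authors' deposited table gave Slc7a11 log2 fold changes of 0.99 ± 0.44 (SE, adjusted p = 0.103) in 3-week males, 1.16 ± 0.41 (SE, adjusted p = 0.0295) in 3-week females and 4.08 ± 0.65 (SE, no p-value, outlier status) in 3-month males, on means of only 25.5, 19.6 and 44.2. Slc7a3, another cationic carrier, rose in 3-week males at 1.22 ± 0.40 (SE, adjusted p = 0.0190) in the authors' deposited table, with -0.03 ± 0.34 in 3-week females and -0.0045 ± 0.57 in 3-month males.

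Other uptake carriers rose at 3 months, fell, or had opposite calls in different tables. The large neutral carrier Slc7a5 (LAT1) rose at 1.66 ± 0.26 (SE, adjusted p = 1.38e-09), the cationic carrier Slc7a2 at 1.48 ± 0.22 (SE, adjusted p = 3.06e-10) and the neutral carrier Slc38a2 (SNAT2) at 1.07 ± 0.08 (SE, adjusted p = 4.43e-38) in 3-month males in the authors' deposited table. None of the 3 was called at 3 weeks, where the authors' deposited table gave fold changes from -0.42 for Slc7a5 in females to 0.44 for Slc38a2 in males. Slc1a5, the glutamine carrier ASCT2, was lower in 3-week females and higher in 3-month males, with -0.16 ± 0.28 (SE, no p-value, outlier status) in 3-week males, -0.55 ± 0.15 (SE, adjusted p = 0.00353) in 3-week females and 1.15 ± 0.08 (SE, adjusted p = 1.08e-40) in 3-month males in the authors' deposited table. Slc38a1, the glutamine carrier SNAT1, had the same pair of opposite calls, in tables that differ in both sex and age, with -0.46 ± 0.22 (SE, adjusted p = 0.146) in 3-week males, -0.57 ± 0.14 (SE, adjusted p = 7.44e-04) in 3-week females and 1.08 ± 0.31 (SE, adjusted p = 0.00129) in 3-month males in the authors' deposited table. Slc43a3, best known for nucleobases, fell in 3-week females at -0.70 ± 0.20 (SE, adjusted p = 0.00576) in the authors' deposited table, with -0.15 ± 0.19 (SE, adjusted p = 0.698) in 3-week males and 0.84 ± 0.45 (SE, no p-value, outlier status) in 3-month males. At 3 months Slc38a4 fell at -1.50 ± 0.47 (SE, adjusted p = 0.00319) and Slc6a14 at -1.67 ± 0.65 (SE, adjusted p = 0.0210) in the authors' deposited table, the latter on a mean of 11.0 and lost with total-count scaling, at -1.17 (adjusted p = 0.104). The remaining 2 members were Slc43a1, not called in 3-week females and of outlier status in males, and Slc38a5, of low mean in each table.

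Promoter sequences of 3 carriers of these groups are shown because they hold a site tied to amino acid supply, and that of Slc3a1 because it holds a site of a proximal tubule factor. The windows run from 250 bases before to 50 after the gene's start in RefSeq on GRCm38.p6, and 43 of the 61 transporters matched, with 64 windows. The core of the amino acid response element, TGATGCAA, to which the stress factor ATF4 is known to bind, was searched on both strands, and 3 of 43 transporters held it, against 1.03% of all genes with windows. These were Slc7a11, Slc1a4 and Slc7a7. Slc7a11 held it in both orientations, with first bases 66 and 47 bases before the start. In Slc1a4 the reverse complement began 4 bases before the start, and in Slc7a7 the core began 1 base before it. A further, overlapping window of Slc7a7 holds the same match and is not shown. The site CAAAGTCCA, to which the proximal tubule factor HNF4 is known to bind, was in the window of 1 of 43 transporters, Slc3a1, with its first base 39 bases before the start, against 0.555% of all genes. Capitals mark the matches, and each sequence is read 5′ to 3′ along the gene. The windows are chr3:50443564-50443863, chr11:20332664-20332963 and chr14:54417895-54418194 on the minus strand for Slc7a11, Slc1a4 and Slc7a7, and chr17:85028097-85028396 on the plus strand for Slc3a1.
Slc7a11: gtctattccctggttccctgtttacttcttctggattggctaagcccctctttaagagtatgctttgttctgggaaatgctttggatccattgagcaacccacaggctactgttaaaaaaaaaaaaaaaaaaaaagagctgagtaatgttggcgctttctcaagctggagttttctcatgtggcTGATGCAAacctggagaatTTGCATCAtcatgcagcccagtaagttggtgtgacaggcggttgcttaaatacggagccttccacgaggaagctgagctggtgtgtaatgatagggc
Slc1a4: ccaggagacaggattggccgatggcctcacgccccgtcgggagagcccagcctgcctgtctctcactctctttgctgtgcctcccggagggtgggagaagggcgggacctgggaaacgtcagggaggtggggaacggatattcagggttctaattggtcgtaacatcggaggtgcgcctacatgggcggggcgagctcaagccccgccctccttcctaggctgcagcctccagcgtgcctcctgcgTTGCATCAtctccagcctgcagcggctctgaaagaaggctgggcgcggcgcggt
Slc7a7: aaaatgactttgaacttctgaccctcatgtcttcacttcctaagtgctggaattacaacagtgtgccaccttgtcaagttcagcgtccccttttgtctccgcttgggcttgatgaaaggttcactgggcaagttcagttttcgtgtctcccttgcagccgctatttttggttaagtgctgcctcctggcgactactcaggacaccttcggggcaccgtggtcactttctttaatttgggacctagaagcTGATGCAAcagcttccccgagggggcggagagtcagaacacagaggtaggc
Slc3a1: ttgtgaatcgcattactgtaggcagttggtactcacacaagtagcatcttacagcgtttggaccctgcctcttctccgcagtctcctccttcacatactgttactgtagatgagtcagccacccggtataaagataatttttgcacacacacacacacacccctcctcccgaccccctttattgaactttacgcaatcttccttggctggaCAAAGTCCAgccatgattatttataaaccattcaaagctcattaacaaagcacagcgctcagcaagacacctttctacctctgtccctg

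Of the carriers with the amino acid response element core, Slc7a11 and Slc1a4 were each called higher in 1 table at 3 weeks and Slc7a7 was lower in all 3, so the match did not go with 1 direction. The element TCAAGGTCA, to which the ERR receptors are known to bind, was in 0 of 43 transporter windows, against 0.466% of all genes, and its core AAGGTCA, which is part of it, was in 2 of 43, Slc6a11 and Slc6a13, against 5.38% of all genes. A match is a description of letters, and the absence of one says only that these letters are not in these windows.

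Of members best known from nerve and glial cells, Slc6a4 and Slc1a2 fell in every table. Among 15 such members 6, 8 and 8 had the low status in 3-week males, 3-week females and 3-month males. Of the rest, 4 of 9 tested were lower in 3-week males, 3 of 6 in 3-week females and 3 of 7 in 3-month males, with 2 higher at 3 months. Beside these stand the 8.52%, 10.4% and 27.8% of all genes tested that were lower. At 3 months 29.8% of all genes were higher, so that the 2 higher, 28.6% of the 7 tested, were at the background. Slc6a4, the serotonin transporter, had log2 fold changes of -1.20 ± 0.24 (SE, adjusted p = 1.11e-05) in 3-week males, -0.91 ± 0.19 (SE, adjusted p = 4.23e-05) in 3-week females and -2.40 ± 0.28 (SE, adjusted p = 1.53e-16) in 3-month males in the authors' deposited table, on means of 282, 228 and 165. Slc1a2, the glutamate carrier GLT-1 of astrocytes, had log2 fold changes of -1.13 ± 0.24 (SE, adjusted p = 7.17e-05) in 3-week males, -1.06 ± 0.28 (SE, adjusted p = 0.00214) in 3-week females and -2.43 ± 0.20 (SE, adjusted p = 3.45e-31) in 3-month males in the authors' deposited table. Both were lower in all 3 tables, as were Slc7a7 and Slc7a9 and no other transporter, although the call of Slc7a9 in females depends on the scaling, as given above. Slc6a15, a carrier of branched-chain amino acids and proline, had log2 fold changes of -0.83 ± 0.21 (SE, adjusted p = 0.00119) in 3-week males, -0.99 ± 0.35 (SE, no p-value, outlier status) in 3-week females and -1.13 ± 0.25 (SE, adjusted p = 1.85e-05) in 3-month males in the authors' deposited table. Slc6a17, a vesicular carrier of neutral amino acids, fell at 3 weeks and was not called at 3 months, with -1.0 ± 0.21 (SE, adjusted p = 4.05e-05) in 3-week males, -1.19 ± 0.22 (SE, adjusted p = 1.12e-06) in 3-week females and 0.24 ± 0.36 (SE, adjusted p = 0.573) in 3-month males in the authors' deposited table. Slc1a3, the glutamate carrier GLAST, rose at 3 months, with 0.51 ± 0.22 (SE, adjusted p = 0.0876) in 3-week males, 0.28 ± 0.28 (SE, adjusted p = 0.533) in 3-week females and 2.35 ± 0.18 (SE, adjusted p = 3.26e-36) in 3-month males in the authors' deposited table. Slc6a9, the glycine carrier GlyT1, was tested in all 3 tables and called in none, with fold changes of 0.13 ± 0.19, -0.63 ± 0.28 and -0.41 ± 0.31 in the authors' deposited table. Slc6a3, for dopamine, and Slc6a7, for proline, were tested at 3 weeks only and not called, and Slc1a6, Slc1a7, Slc6a2, Slc6a5 and Slc6a11 were low or at 0 in each table.

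Lysosomal and less studied members called in a table were lower there. Of 12, 1 of 8 tested was lower in 3-week males and 1 of 8 in 3-week females, shares of 12.5% in each, and 3 of 5 were lower in 3-month males. Over all genes tested 8.52%, 10.4% and 27.8% were lower in the same tables, so that the counts at 3 weeks were near the background. Slc36a1, the proton-coupled carrier PAT1 of lysosomes, fell in 3-week males at -0.56 ± 0.16 (SE, adjusted p = 0.00394) in the authors' deposited table, a call lost with total-count scaling at -0.39 (adjusted p = 0.0690). In 3-month males the authors' deposited table gave Slc36a1 -1.70 ± 0.43 (SE, no p-value, outlier status). Slc38a10 fell in 3-week females at -0.28 ± 0.08 (SE, adjusted p = 0.00656) and in 3-month males at -0.63 ± 0.10 (SE, adjusted p = 2.96e-10) in the authors' deposited table. Slc38a9, the lysosomal arginine sensor of the growth kinase complex mTORC1, fell at 3 months at -0.64 ± 0.13 (SE, adjusted p = 1.44e-06), and Slc38a6 at -0.72 ± 0.29 (SE, adjusted p = 0.0253), in the authors' deposited table. All of these calls of the Slc38a members were lost with total-count scaling, with log2 fold changes then of -0.13 (adjusted p = 0.249), -0.13 (adjusted p = 0.210), -0.15 (adjusted p = 0.300) and -0.22 (adjusted p = 0.505). Slc38a7 and Slc36a4 were tested in all 3 tables and not called, and Slc7a15 and Slc38a11 were tested at 3 weeks and not called. Slc7a12, on means of 2109.7, 2153 and 316, had outlier status in all 3 tables, with -0.47 ± 0.35, 0.88 ± 0.32 and 1.58 ± 0.56 in the authors' deposited table. Slc36a3, Slc7a14 and Slc38a8 had low means in every table.

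Of 9 pairs of neighbouring transporters less than 100 kb apart, 0 had opposite calls within a table. The 1 pair with the same call was Slc38a1 and Slc38a2 at 3 months, the only pair with both members tested there. Members of low or outlier status can have no call, so the 0 is in part fixed by missing tests. The pairs given here were chosen after their values were seen. Slc6a18 and Slc6a19 on chromosome 13 are separated by 1.72 kb. In 3-week males the authors' deposited table gave them 0.14 ± 0.15 and -1.87 ± 0.26, and in 3-week females 0.22 ± 0.16 and -1.82 ± 0.29. Slc6a13 and Slc6a12, described above, form a second such pair, at -0.11 ± 0.15 and -3.35 ± 0.24 in 3-week males in the authors' deposited table. At 3 months Slc36a2 and Slc36a1, 19.3 kb apart on chromosome 11, had 4.59 ± 0.52 and -1.70 ± 0.43 in the authors' deposited table. The latter had outlier status and no p-value. Slc38a1 and Slc38a2 rose at 3 months, by 1.08 ± 0.31 and 1.07 ± 0.08 in the authors' deposited table. The differences within pairs were not tested.

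Slc36a2 and Slc7a10 had the largest positive fold changes of the transporters at 3 months. Both are known, besides their roles in the kidney and in nerve cells, as surface proteins of fat cells. The authors' deposited table of 3-month males gave Slc36a2 4.59 ± 0.52 (SE, adjusted p = 2.74e-17) and Slc7a10 4.78 ± 0.57 (SE, adjusted p = 3.58e-16), on means of 63.0 and 35.8. Fat cell markers moved with them. For Plin1, a coat protein of fat droplets, the authors' deposited table gave 4.67 ± 0.50 (SE, adjusted p = 7.37e-20), for the fatty acid binding protein Fabp4 3.39 ± 0.30 (SE, adjusted p = 3.08e-27), for the hormone gene Adipoq 4.68 ± 0.68 (SE, no p-value, outlier status), for the droplet protein Cidec 4.96 ± 0.58 (SE, no p-value, outlier status) and for the brown fat protein Ucp1 3.03 ± 0.77 (SE, low mean, no adjusted p). None of the 5 markers was at 0, and their means summed to 18904, 9399 and 5191 in the tables of 3-week males, 3-week females and 3-month males. The marker with the largest mean gave 14144, 7623 and 3248 of these sums. At 3 weeks all 5 markers and Slc36a2 had outlier status in both tables, and Slc36a2 had 0.03 ± 0.37 in males and -0.05 ± 0.31 in females in the authors' deposited table. The mean of Slc36a2 there was 416 in males and 168 in females. Because the tables were normalized separately, these means and the sums above are not compared between tables. Slc7a10 had 0.16 ± 0.43 (SE, adjusted p = 0.870) in 3-week males in the authors' deposited table and a low mean in 3-week females. The part of fat cells in these values was not tested.

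**Figure D4:**
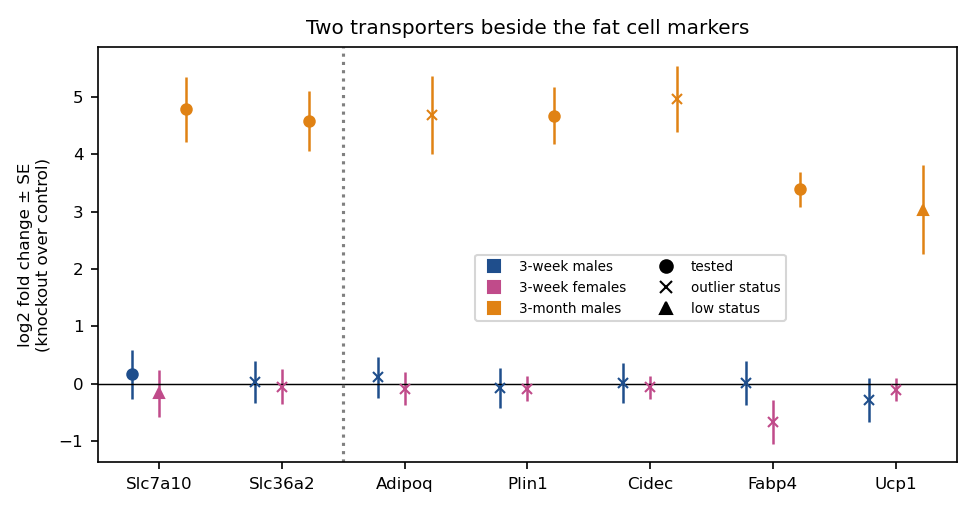
Log2 fold change with its SE for Slc7a10, Slc36a2 and the 5 fat cell markers in each of the 3 deposited tables. In 3-month males all 7 genes lie above 3, and at 3 weeks none lies above 0.5.

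Markers of some other cell types also moved with the higher calls at 3 months, and those of others did not. Of 7 immune cell markers 6 were tested in 3-month males and all 6 were higher, with a median of 2.78, and 4 of 7 were higher in each 3-week table, with medians of 0.95 in males and 0.86 in females, in the authors' deposited table. Of 6 tubular injury markers, 4 of 4, 5 of 5 and 5 of 5 tested were higher. Medians over those tested were 1.83, 2.45 and 4.05, and over all 6 they were 2.99, 2.49 and 4.72, in the authors' deposited table. Of 5 fibroblast markers, 1 of 1 tested was higher at 3 months, with a median over all 5, of which 4 had outlier status, of 3.43, and at 3 weeks 1 of 1 was higher in males and 3 of 5 higher and 1 lower in females, with medians of 0.78 and 0.58, in the authors' deposited table. Markers of principal cells numbered 5, of which 2 of 3, 0 of 1 and 3 of 3 tested were higher, with medians over all 5 of 0.90, 0.46 and 0.77 in the authors' deposited table. Of 5 podocyte markers, 3 of 5, 1 of 5 and 3 of 4 tested were lower and 0, 0 and 1 higher. Their medians over all 5 were -0.50, -0.49 and -0.42. For 5 endothelial markers, 2 of 5, 5 of 5 and 1 of 3 tested were lower and 0, 0 and 1 higher. Medians over these 5 were -0.49, -0.90 and 0.37. Among 5 intercalated cell markers, 2 of 3, 1 of 2 and 0 of 1 tested were lower and 0 higher. Their medians over all 5 were -0.06, -0.29 and -0.95 in the authors' deposited table. Of genes of the urothelium and the inner medulla, chosen after their values were seen, the keratin Krt5 rose at 3 months, at 10.02 ± 0.50 (SE, adjusted p = 3.07e-85) in the authors' deposited table. For the uroplakin Upk3a the authors' deposited table gave 8.39 ± 0.68 (SE, no p-value, outlier status) and for the urea transporter Slc14a2 7.45 ± 0.70 (SE, no p-value, outlier status) in 3-month males. Their part in the rise of Slc7a1, Slc7a5, Slc7a6, Slc1a3 and the other uptake carriers was not tested.

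At 3 weeks no transporter was called as differing in its fold change between males and females. Of 36 transporters tested in both sexes, 26 had the same sign, and across these genes, which share libraries within a table and are not independent replicates, Pearson's r was 0.78, against 0.86 over 13737 genes. The difference of the 2 log2 fold changes over the root of their summed squared standard errors, with a 2-sided normal p adjusted over all genes (the percentage called was 0), was called for 0 of 36 transporters and 0 of 13737 genes. At an unadjusted p under 0.05 there were 3 transporters and 237 genes. The 3 were Slc43a3, Slc6a9 and Slc7a3, named after their values were seen, with differences (females minus males) of -0.55 ± 0.28, -0.76 ± 0.34 and -1.25 ± 0.53 (SE) from the authors' deposited tables. The SEs of the 36 differences ran from 0.20 to 0.61 with a median of 0.31, and a p that misses the threshold does not show that males and females responded alike. The 237 of 13737 genes are also a smaller share than the 0.05 the test should give if no gene differed. The test was thus conservative here, and 0 calls could arise even where fold changes differ.

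Between 3 weeks and 3 months the fold changes of the male kidneys diverged. Of 31 transporters tested in both male tables, 20 differed by the same test, 12 with a more negative and 8 with a more positive fold change at 3 months, where 27.7% of all 12355 genes differed, 10.9% more negative and 16.8% more positive. Pearson's r across the 31 was 0.60, against 0.68 over all genes, and 22 had the same sign. Of the 12 with a more negative value, Slc6a14 and Slc38a4 had the most negative differences, -2.06 ± 0.77 (SE, adjusted p = 0.0310) and -1.74 ± 0.56 (SE, adjusted p = 0.0107) from the authors' deposited tables. Among brush border and basolateral carriers they were Slc6a19, with a difference of -1.52 ± 0.34 (SE, adjusted p = 9.46e-05), Slc7a9 with -1.49 ± 0.18 (SE, adjusted p = 9.65e-15), Slc7a8 with -1.22 ± 0.37 (SE, adjusted p = 0.00680) and Slc6a20a with -1.55 ± 0.27 (SE, adjusted p = 3.55e-07), from the authors' deposited tables. Those with a more positive value included Slc7a1, with a difference of 1.90 ± 0.26 (SE, adjusted p = 4.94e-11), Slc7a6 with 2.06 ± 0.32 (SE, adjusted p = 6.29e-09), Slc7a5 with 1.60 ± 0.43 (SE, adjusted p = 0.00148) and Slc38a1 with 1.54 ± 0.38 (SE, adjusted p = 5.31e-04), likewise from the authors' deposited tables. The differences of Slc38a6, Slc38a9, Slc6a14 and Slc6a8 were lost with total-count scaling. The tables also differ in depth and number of libraries, and any moderation of fold changes towards 0 may differ between them, which cannot be told apart from age here.

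**Figure D5:**
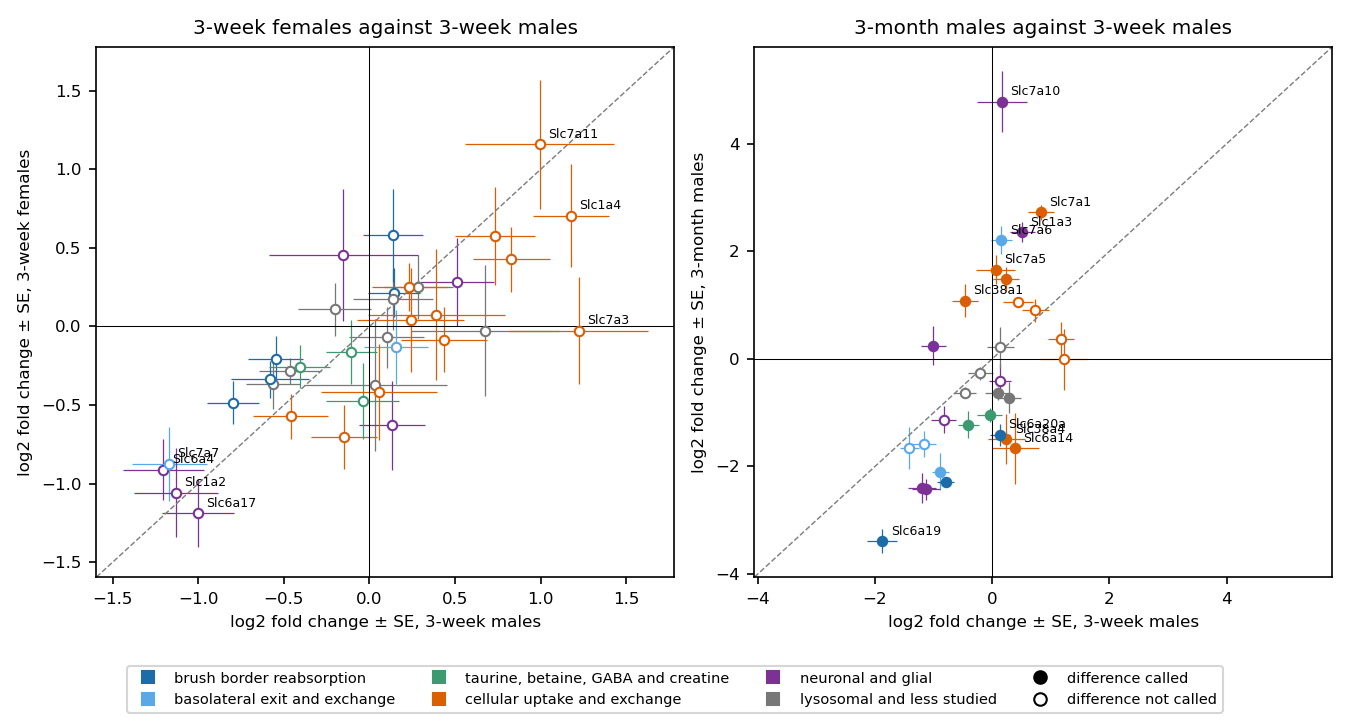
Log2 fold change with its SE of the transporters tested in both tables, 3-week females (left) and 3-month males (right) against 3-week males, coloured by role; filled points differ between the tables at an adjusted p under 0.05 and the dashed line marks equality. No point is filled on the left and 20 of 31 are on the right.

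Genes that work with the transporters were described from 4 further lists, and each of their genes named below was called in the table given. These lists too were drawn up with earlier results known. Their counts by direction stand beside shares of all genes tested of 8.52% lower and 8.81% higher in 3-week males. In 3-week females these shares were 10.4% and 8.29%, and in 3-month males 27.8% and 29.8%. Of 24 partners and other carriers of amino acids or peptides in the tables, 5 of 19 tested were lower and 1 higher in 3-week males, 4 and 1 of 18 in 3-week females, and 8 and 1 of 14 in 3-month males. Pdzk1, the scaffold of brush border carriers, fell in 3-week males at -0.78 ± 0.16 (SE, adjusted p = 1.63e-05) in the authors' deposited table, and Slc15a1, a peptide carrier, at -1.26 ± 0.38 (SE, adjusted p = 0.00834). Slc25a12, a mitochondrial carrier of aspartate and glutamate, fell in all 3, at -0.73 ± 0.16, -0.77 ± 0.11 and -1.16 ± 0.23 in the authors' deposited table. Slc25a22, a mitochondrial glutamate carrier, fell in 3-week females at -0.89 ± 0.21 and Slc25a15, the ornithine carrier, at -0.46 ± 0.14 in the authors' deposited table. Slc17a8, a vesicular glutamate carrier, rose at 3 weeks, at 2.99 ± 0.38 in males and 2.08 ± 0.39 in females in the authors' deposited table, and fell in 3-month males at -1.91 ± 0.62 (SE, adjusted p = 0.00449) on a mean of 11.4. At 3 months the lysosomal carrier Pqlc2 fell at -0.75 ± 0.12, while Slc15a3, a peptide and histidine carrier of immune cells, rose at 2.60 ± 0.28, in the authors' deposited table.

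All called peptidases of the brush border and kidney, which release amino acids from peptides, were lower. Of 16, 7 of 14 tested were lower in 3-week males, 4 of 12 in 3-week females and 5 of 7 in 3-month males, with 0 higher. The others, 2, 4 and 9 in the same order, had outlier status and no p-value. All 4 of these in 3-week females had positive fold changes, and those in males had negative ones. Medians over all 16 were -0.58, -0.04 and -1.62 in the authors' deposited table. Naaladl1 fell in all 3 tables, by log2 fold changes of -2.64 ± 0.38, -2.06 ± 0.40 and -3.86 ± 0.64 in the authors' deposited table. Dpep1, a dipeptidase, fell at 3 weeks, at -0.99 ± 0.25 in males and -1.30 ± 0.16 in females, and the meprin subunits Mep1a and Mep1b fell in 3-week males at -0.64 ± 0.16 and -0.92 ± 0.22, in the authors' deposited table. Folh1 fell in 3-week females at -0.65 ± 0.23 and in 3-month males at -1.86 ± 0.21, and Lap3 in 3-week females at -0.35 ± 0.13, in the authors' deposited table. At 3 months Ace fell at -2.65 ± 0.40 and Enpep at -1.24 ± 0.27 in the authors' deposited table.

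Enzymes of amino acid breakdown and synthesis were mostly lower where called. Of 57, 28 of 50 tested were lower and 2 higher in 3-week males, 20 and 3 of 45 in 3-week females, and 18 and 5 of 27 in 3-month males. A further 4, 9 and 24 had outlier status and no p-value, of which 2, 7 and 23 had negative fold changes. Subunits of the branched-chain keto acid dehydrogenase fell, with Bckdhb at -1.13 ± 0.20 in 3-week males and Bckdha at -0.74 ± 0.10 in 3-week females and -1.61 ± 0.12 in 3-month males in the authors' deposited table. Shmt1 fell in 3-week males at -1.05 ± 0.15 and the oxidase Dao at -0.84 ± 0.17, and in 3-week females the transaminase Bcat2 fell at -1.20 ± 0.14 and Prodh2 at -0.96 ± 0.14, in the authors' deposited table. At 3 months Aadat fell at -2.67 ± 0.21, while the arginase Arg2 rose at 3.19 ± 0.32 and Aldh18a1, of proline synthesis, at 2.68 ± 0.24, in the authors' deposited table.

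Targets and factors of the amino acid and integrated stress response rose more often than they fell. Of 32, 5 of 27 tested were higher and 1 lower in 3-week males, 6 and 2 of 28 in 3-week females, and 16 and 5 of 26 in 3-month males. Aldh1l2, a mitochondrial folate enzyme, rose at 3 weeks, at 2.87 ± 0.21 in males and 3.03 ± 0.22 in females in the authors' deposited table. Asns, asparagine synthetase, rose at 1.10 ± 0.25 and 1.07 ± 0.21 in the same tables, Atf3 at 2.45 ± 0.24 in males and Mthfd2 at 0.82 ± 0.19 in females, in the authors' deposited table. Shmt2 fell at 3 weeks, at -0.56 ± 0.15 in males and -0.53 ± 0.09 in females in the authors' deposited table. At 3 months Nupr1 rose at 3.51 ± 0.22, Stc2 at 2.93 ± 0.23 and Phgdh, of serine synthesis, at 1.80 ± 0.18 in the authors' deposited table. The counts of these lists stand beside the same background shares as those of the transporters, 17.3%, 18.7% and 57.5% of all genes called. By this share in either direction, the stress response list in 3-week males, at 22.2%, was near the background. So was the list of partners and other carriers in 3-month males, at 64.3%. By direction the shares were less alike. The stress response list in 3-week males had 3.70% lower and 18.5% higher, beside 8.52% and 8.81% of all genes. The partners in 3-month males had 57.1% lower and 7.14% higher, beside 27.8% and 29.8%.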

How the data were processed

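Polyadenylated RNA of 15 kidneys was made into TruSeq Stranded mRNA libraries, per the labels' protocols. The authors used STAR, HOMER and DESeq2 with the build mm10, per the submitters' processing notes. The sources used here do not state versions. The 3 deposited tables hold the authors' signal (normalized counts averaged over libraries), log2 fold changes with SEs, p-values, adjusted p-values and a status, per the file headers. Deposited p-values matched a 2-sided normal p of fold change over SE within 0.5%. Their largest SEs were 0.44, 0.42 and 1.10, a ceiling seen where fold changes are moderated, though no source used here states it. The labels name separate kidneys of littermates, and groups were taken from the titles. The design foresaw counts per library or the authors' comparisons, and the latter applied.

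Calls used the deposited adjusted p under 0.05. Differences between tables were tested with a 2-sided normal p and Benjamini-Hochberg adjustment over all genes, and both steps were tested on simulated data. Backgrounds leave out 27 symbols turned into dates. Total-count scaling used the group sums that mean and fold change imply. Members, roles and lists were chosen with earlier results of these data known. Some genes of these lists are counted but not reported here by name. Full values are given for members called in a table or of outlier status with a mean of at least 1000, and for up to 4 members of each further list and table with the smallest p. Exon lengths and coordinates are GENCODE's on GRCm38. Python 3.11.15, numpy 2.4.6, pandas 2.3.3, scipy 1.17.1 and matplotlib 3.10.9 were used. Alternatives were a threshold of 0.01, a minimum log2 fold of 1, recentring, total-count scaling, no filter, and a minimum mean of 100.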

Additional observations from a re-analysis of the deposited data

Results flagged for a closer look

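The log2 fold changes of 20 transporters differed between 3-week and 3-month males by the test of the difference itself, at an adjusted p under 0.05 over 12355 genes. From the authors' deposited tables, the differences (3-month minus 3-week males) that were more negative at 3 months were -2.06 for Slc6a14, -1.74 for Slc38a4, -1.55 for Slc6a20a, -1.52 for Slc6a19, -1.49 for Slc7a9 and -1.30 for Slc1a2. They were also -1.22 for Slc7a8, -1.19 for Slc6a4, -1.01 for Slc38a6, -1.0 for Slc6a6, -0.82 for Slc6a8 and -0.74 for Slc38a9. Those more positive were 4.62 for Slc7a10, 2.06 for Slc7a6, 1.90 for Slc7a1, 1.84 for Slc1a3, 1.60 for Slc7a5, 1.54 for Slc38a1, 1.25 for Slc6a17 and 1.25 for Slc7a2.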

How the results depend on the processing

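Of 78 calls of single transporters, counting their differences between male tables, 47 were kept under every alternative that could be applied. Scaling by total counts lost 14, and 0 reversed under any alternative. Among those kept, Slc36a2, Slc38a1, Slc38a4, Slc7a5 and Slc7a10 in 3-month males have means below 100, so the minimum mean was not applied to them. Nor was it applied to the differences of Slc38a1, Slc7a5 and Slc7a10. The minimum log2 fold was not applied to any difference. With an adjusted p under 0.01, higher calls were 3 in 3-week males and 0 in 3-week females. Where a log2 fold change of at least 1 was also asked for, lower calls were 7 in 3-week males and 3 in 3-week females, and higher calls in 3-week males were 2. Scaling by total counts gave 4 higher calls in 3-week females. With no filter on low means or outliers, higher calls were 3 in 3-week females and 17 in 3-month males, and the median of the transporters in 3-week males turned from 0.04 to -0.077. A mean of at least 100 left 0 higher calls in 3-week females and 7 in 3-month males, since fewer genes were tested. The median in 3-month males moved from -0.52 to -0.02 with total counts and to -0.25 with no filter. Recentring fold changes on the median of all genes tested kept each count within 1.5 times. Undoing an assumed moderation, chosen after seeing the data, left 0 and 20 differences between tables. Where not named here, causes were not tested. No paired analysis was possible because the groups share no replicate numbers and the tables hold no values per library. For the same reason leaving out single libraries was not run. With the mean counts of low genes near 10, the 3-month calls of Slc6a14 and Slc7a10 rest on low counts.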
